A study of Mus musculus with 12 samples.

Results

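The small nucleolar RNA genes described here are the rows of the expression table whose gene name begins with Snora (the H/ACA class) or Snord (the C/D class) followed by a number. They were chosen by their measured values, an FPKM above 0 in 3 or more of the 12 libraries, where FPKM is the number of sequenced fragments scaled to transcript length and to the mapped fragments of the library. Of 29838 genes in the table, 114 carried such a name and 111 were members, 39 of the H/ACA class and 72 of the C/D class. Of these, 88 were above 0 in all 12 libraries, which does not mean clear detection. Snord95, 1 of the 88, averaged 7.31e-05 FPKM, and 9 H/ACA and 12 C/D members had a mean under 0.1 FPKM. Snord82 was just inside the limit, with values in the 3 proerythroblast libraries alone (0.113, 0.399 and 0.620 FPKM). Just outside it were Snora36b, with 0.286 and 0.492 FPKM in 2 libraries, and Snord61 and Snord13, each above 0 in 1 library.

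Bone marrow of wild-type (WT) male C57BL/6 mice, 8 weeks of age and not treated, was depleted of CD45-positive cells and sorted by CD44 and Ter119, with CD11b-, GR1- and CD45-positive cells gated out. The 4 stages of terminal differentiation, each with 3 RNA sequencing libraries, were the proerythroblast (Pro), then the basophilic (Baso), the polychromatic (Poly) and at last the orthochromatic (Ortho) erythroblast. The labels do not say whether the 3 libraries of a stage came from separate mice, so p-values measure the spread between these libraries. Ortho replicates 2 and 3 carry a general erythroblast label and were placed in their stage by their titles.

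Small nucleolar RNAs are short RNAs of the nucleolus that guide the modification of ribosomal RNA. C/D RNAs direct ribose methylation by fibrillarin and H/ACA RNAs direct pseudouridine formation by dyskerin, and a few of either class take part in cutting the ribosomal RNA precursor instead. In mammals most of them lie in introns of other genes, often genes for ribosomal proteins or long noncoding RNAs, and are cut out of the host's spliced intron. Erythroblasts make many ribosomes at the start of terminal differentiation, and then condense and expel the nucleus.

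The 5 most abundant C/D members and 4 of the 5 most abundant H/ACA members are given because most of the values that follow belong to them, and because the letters that give the classes their names can be seen in them. Sequences are from GENCODE M21 on mm10, 5′ to 3′ on the transcribed strand. In C/D RNAs, capitals mark the C box (TGATGA, searched in the first 20 bases) and the D box (CTGA, searched in the last 20 bases).
Snord80: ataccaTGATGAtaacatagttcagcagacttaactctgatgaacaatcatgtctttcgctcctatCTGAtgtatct
Snord104: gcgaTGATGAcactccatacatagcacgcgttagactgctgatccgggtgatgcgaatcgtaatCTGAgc
Snord12: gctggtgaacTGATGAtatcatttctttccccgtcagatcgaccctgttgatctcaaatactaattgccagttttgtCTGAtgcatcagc
Snord83b: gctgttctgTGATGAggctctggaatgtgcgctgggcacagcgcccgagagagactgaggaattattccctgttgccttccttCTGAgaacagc
Snord49b: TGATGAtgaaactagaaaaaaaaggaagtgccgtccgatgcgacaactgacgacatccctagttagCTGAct
In the H/ACA RNAs, capitals mark the last ACA, searched in the last 8 bases.
Snora31: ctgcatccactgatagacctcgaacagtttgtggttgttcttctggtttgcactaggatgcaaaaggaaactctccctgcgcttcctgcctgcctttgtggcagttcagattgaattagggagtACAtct
Snora24: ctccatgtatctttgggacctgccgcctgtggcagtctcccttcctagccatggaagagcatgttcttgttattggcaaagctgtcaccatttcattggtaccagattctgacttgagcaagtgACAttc
Snora70: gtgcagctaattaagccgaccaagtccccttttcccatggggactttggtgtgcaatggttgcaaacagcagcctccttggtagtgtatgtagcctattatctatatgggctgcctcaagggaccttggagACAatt
Snora61: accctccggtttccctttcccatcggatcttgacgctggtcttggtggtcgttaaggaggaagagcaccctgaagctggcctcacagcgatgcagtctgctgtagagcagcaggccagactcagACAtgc

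On mm10 the C/D genes lie at chr1:161037604-161037680 (Snord80, plus strand), chr11:106500993-106501062 (Snord104, plus), chr2:167065276-167065365 (Snord12, plus), chr15:80078498-80078591 (Snord83b, minus) and chr11:62603079-62603150 (Snord49b, plus). The H/ACA genes lie at chr14:75847905-75848034 (Snora31, plus strand), chr3:123507937-123508066 (Snora24, minus), chrX:74272484-74272620 (Snora70, plus) and chr4:132310240-132310369 (Snora61, plus). In each of these 4 H/ACA RNAs the ACA stood 3 bases from the 3′ end. Over all members, ACA was found in the last 8 bases of 37 of 39 H/ACA genes and 6 of 72 C/D genes, against 12.2% of 3714 other small RNA transcripts of 60 to 250 bases. The C box letters were found in 47 of 72 C/D genes, in 0 of 39 H/ACA genes and in 0.135% of the other transcripts, and the D box letters in 70, in 4 and in 7.05%. No other motif was searched, and only the transcribed strand was read.

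The genes were short, 64 to 238 bases for C/D members (median 79.5) and 121 to 205 bases for H/ACA members (median 133). Of the 111 members, 107 lay within a host gene on the same strand, in 76 different hosts. Of these hosts, 58 were annotated as protein-coding and 18 under other types, among them Cct6a, which is annotated as a processed transcript. Ribosomal protein genes made up 24 of the hosts and held 31 members. Several members shared 1 host in 21 cases, with 5 members in Snhg12, 4 in Rpl13a and 4 in Gas5. Members of 1 host derive from 1 transcript and are not independent of each other. In the annotation, 47 members lay in an intron of the host alone, 60 overlapped an annotated exon of the host (a retained intron or another isoform included) and 4 had no host (Snord104, Snora57, Snora17 and Snora43). Snord43 is annotated as a miRNA, the other 110 members as snoRNA. An antisense gene overlapped 8 members, and the strand setting of the authors' counting is not given in the sources used here, so reads of the other strand cannot be told apart. Nor can reads of the mature small RNA be told apart from reads of the host's unspliced or exonic RNA at the same place.

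The libraries were alike within stages (Pearson's r of log2(FPKM + 1) across genes from 0.973 to 0.984), and no pair was identical. The 6 erythroid markers summed to between 20228 and 31440 FPKM in Pro and to between 166084 and 198272 in Ortho. Marker sums of cells outside the erythroid line were likewise higher in Ortho for neutrophils (7 genes, 6643 to 8405 FPKM in Pro and 13226 to 16469 in Ortho), macrophages (6 genes, 26.1 to 31.5 and 59.9 to 70.3), B cells (5 genes, 40.0 to 65.2 and 109 to 138) and T and NK cells (4 genes, 20.9 to 28.1 and 32.5 to 37.96), and were lower in Ortho for megakaryocytes and platelets (4 genes, 64.0 to 118 and 34.7 to 43.9). None of these markers was at 0 in all libraries, and their part in the results was not tested. In such bulk samples, fewer cells of a type and less RNA per cell cannot be told apart.

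As a group, the small nucleolar RNAs took a larger share of the proerythroblast libraries than of any later library. The summed FPKM of the H/ACA members was 144, 173 and 183 in the Pro libraries and 166 ± 20.4 on average (SD, n = 3). It was 66.3, 83.2 and 78.9 in Baso (76.2 ± 8.77), 65.1, 84.1 and 76.4 in Poly (75.2 ± 9.55), and 47.6, 64.3 and 56.9 in Ortho (56.3 ± 8.39). Every Pro library lay above every later library, the Baso and Poly libraries overlapped, and the 3 Ortho libraries lay below all of them, the highest Ortho library only just below the lowest Poly library.

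The C/D members summed to 431, 351 and 452 FPKM in Pro (412 ± 53.1, SD, n = 3). They summed to 119, 167 and 165 in Baso (150 ± 27.1), to 113, 147 and 137 in Poly (132 ± 17.1), and to 109, 115 and 108 in Ortho (111 ± 3.88). Again all Pro libraries were higher than all others, and the ranges of Baso and Poly overlapped. The Pro mean was 3.72 times the Ortho mean for C/D members and 2.96 times for H/ACA members. The 5 most abundant members held 57.5% of the H/ACA sum and 37.8% of the C/D sum, so a few genes weigh heavily in these sums. No test was made of the sums, since the members were chosen with results of these data known.

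**Figure D1:**
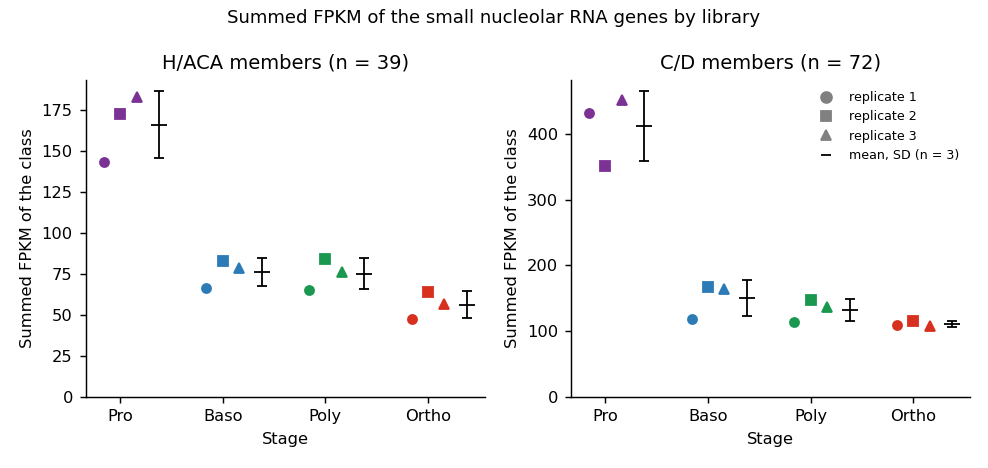
Summed FPKM of the 39 H/ACA members (left) and the 72 C/D members (right) in each library, by stage. Symbols are the 3 replicates, and the black bar is their mean with the SD. The Pro libraries lie at 144 to 183 (H/ACA) and 351 to 452 (C/D), above all 9 later libraries.

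The balance of the classes changed less than their sums. The H/ACA share of the summed FPKM of both classes averaged 28.9% ± 3.98 over the Pro libraries (SD, n = 3), 33.8% ± 1.79 over Baso, 36.3% ± 0.377 over Poly and 33.6% ± 2.89 over Ortho. The Pro libraries ranged from 24.98% to 32.9% and the Baso libraries from 32.4% to 35.8%, so that these stages overlapped. The Poly libraries (35.8% to 36.5%) were all above the Pro libraries. With 3 libraries against 3, the smallest p that an exact permutation test allows is 0.1, and no p is given for this share.

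Across genes, limma was fitted to log2(FPKM + 1) of the 12994 genes that reached 1 FPKM in 3 or more libraries, and p-values were adjusted over all of them. A gene was called where the adjusted p was under 0.05 and the fold was at least 1 on the log2 scale. Of the 111 members, 62 entered the test, 22 H/ACA and 40 C/D; the 49 others had mean values from 7.31e-05 to 1.32 FPKM. Of the 62, 9 passed the filter only with the help of a Pro library, which favours a decrease, and 53 passed on later libraries alone. FPKM is relative to the whole library, and hemoglobin genes made up 6.98% to 10.6% of the summed FPKM in Pro and 47.2% to 52.6% in Ortho. Against Pro, the 12994 genes had a median log2 change of -0.23 for Baso, -0.20 for Poly and -0.42 for Ortho. With each library rescaled without its hemoglobin genes these medians moved to 0.03, 0.08 and -0.03.

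From Pro to Baso, 21 of the 62 members fell (33.9%) and 0 rose. Among all genes tested, 8.54% were called lower and 1.82% higher. In Poly, 24 members were called lower (38.7%) and 0 higher, against 12.8% and 3.59% of all genes. In Ortho, 36 members were called lower (58.1%) and 0 higher, against 23.8% and 6.33% of all genes. The median log2 fold change of the members was -0.90, -0.91 and -1.16 in the 3 comparisons, which share the Pro libraries. Among the 53 members that passed without the Pro libraries, 19, 22 and 33 were called lower. Rescaled without hemoglobin genes, 16, 16 and 22 members were called lower (25.8%, 25.8% and 35.5%), beside 3.24%, 5.72% and 8.87% of all genes. Centred on the library median, 15, 18 and 19 were called lower, beside 3.15%, 7.12% and 9.95% of all genes, and 1 member, Snora2b, was called higher in Baso, as it was without Pro replicate 2 or Baso replicate 2.

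The order of the libraries was less unlike that of other genes than the count of calls was. All 3 Baso libraries lay below all 3 Pro libraries for 26 of the 62 members, which is 41.9% beside 44.2% of all genes. The same held in Poly for 31 members, 50.0% beside 44.5%, and in Ortho for 38 members, 61.3% beside 53.6%. These shares are near those of all genes, and nothing is read from them. Among the 19 members with a mean of at least 5 FPKM, 10, 14 and 17 were called lower, beside 857, 1311 and 2545 of 8355 genes of such abundance. This mean was taken over all libraries, Pro included, so the filter favours a decrease and nothing is read from these counts.

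Between the later stages, few members moved. From Baso to Poly, 1 member fell (Snord65) and 0 rose, beside 0.454% and 0.0616% of all genes. From Poly to Ortho, limma called 0 members in either direction, beside 4.81% lower and 1.05% higher of all genes. At an unadjusted p under 0.05 there were 6 members in that last comparison, and 2 had an adjusted p under 0.05 with a smaller fold: Snora20 (log2 fold change -0.96, adjusted p = 0.0072) and Snord55 (-0.76, adjusted p = 0.0381). In the comparisons with Pro, 15 members were called lower in all 3 (24.2%, beside 7.19% of all genes) and 40 in at least 1 (64.5%, beside 25.5%). Leaving out any 1 library gave 0 to 2 calls from Baso to Poly and likewise from Poly to Ortho. The call of Snord65 was lost without Baso replicate 3, Poly replicate 1 or Poly replicate 3. Without Pro replicate 1 (Snord57, higher), Baso replicate 2 (Snora61, higher) or Ortho replicate 3 (Snord83b, lower) a second member passed from Baso to Poly. From Poly to Ortho, leaving out Poly replicate 1 (Snora20 and Snord14c), Poly replicate 2 (Snord8), Ortho replicate 2 (Snord59a) or Ortho replicate 3 (Snora20 and Snord8) gave calls, all of them lower.

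Both classes took part. Of 22 H/ACA members, 5, 7 and 12 were called lower in Baso, Poly and Ortho, with a median log2 fold change of -0.60, -0.70 and -1.15. Of 40 C/D members, 16, 17 and 24 were called lower, with medians of -0.98, -0.99 and -1.20. The difference between the classes was not tested, because members of 1 host share a transcript. In Ortho the log2 fold changes ran from -2.09 to 0.21 for H/ACA and from -2.89 to -0.05 for C/D members. Snora70 and Snora2b, with log2 fold changes of 0.21 and 0.16, were the 2 tested members above 0 in Ortho, and neither differed beyond the spread of its libraries (adjusted p = 0.82 and 0.72, limma).

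**Figure D2:**
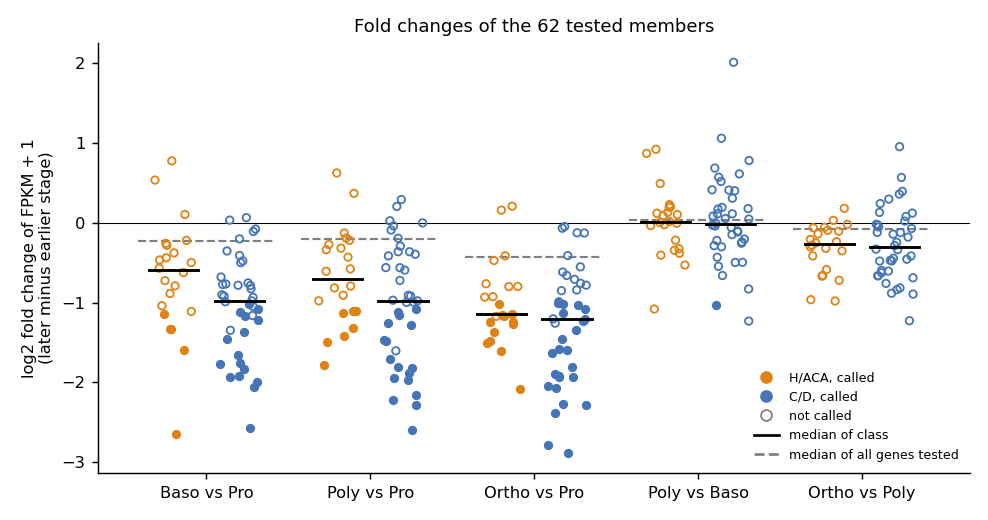
Log2 fold change of FPKM + 1 for each tested member in 5 comparisons (later minus earlier stage), by class. Filled points were called (adjusted p under 0.05 and a log2 fold of at least 1), black bars are the class medians and dashed lines the median of all 12994 genes tested. The class medians lie at -0.60 to -1.20 in the comparisons with Pro and between -0.31 and 0.01 in the others.

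Among the C/D RNAs, Snord80 of the noncoding host Gas5 had the highest mean. Its FPKM was 50.5, 36.6 and 53.7 in Pro, 8.42, 12.8 and 19.5 in Baso, 9.61, 14.99 and 13.4 in Poly, and 14.4, 9.11 and 11.2 in Ortho. The Pro libraries were well apart from the others, which overlapped among themselves. Its log2 fold changes against Pro were -1.77, -1.81 and -1.93 in stage order (SE 0.269, adjusted p = 4.51e-05 for Ortho, limma). A second identifier of the same name covers nearly the same bases (chromosome 1, 161037601 to 161037681, against 161037604 to 161037680) and held at most 0.000323 FPKM in any library, so nearly all of the signal at this place stood under 1 of 2 overlapping annotations.

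Snord104, which has no host in the annotation, had 27.7, 29.3 and 40.9 FPKM in Pro and 10.7, 28.7 and 14.5 in Baso. It had 8.98, 12.3 and 11.99 in Poly and 11.9, 11.9 and 12.6 in Ortho. Baso replicate 2 reached the Pro range while all Poly and Ortho libraries lay below it. Snord104 was called lower in Poly (log2 fold change -1.47, SE 0.277, adjusted p = 0.000668) and in Ortho (-1.34, adjusted p = 0.00094) but not in Baso (-0.92, adjusted p = 0.0143), where it passed once Baso replicate 2 (-1.30) or Pro replicate 1 (-1.02) was left out, or all libraries were rescaled to the same sum (-1.10). The call in Ortho was lost when libraries were rescaled without hemoglobin genes (-0.87) or centred on the median (-0.94).

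Snord83b, in an intron of the ribosomal protein gene Rpl3, had 33.4, 19.4 and 24.3 FPKM in Pro, 8.75, 13.5 and 15.1 in Baso, 3.35, 3.14 and 8.72 in Poly, and 9.003, 7.43 and 2.83 in Ortho. All later libraries lay below all Pro libraries. It was called lower in Poly (log2 fold change -2.22, SE 0.398, adjusted p = 0.000461) and in Ortho (-1.93, adjusted p = 0.000932), and missed in Baso (-0.99, adjusted p = 0.0518), where it passed without Pro replicate 2 (-1.17) and with all libraries rescaled to the same sum (-1.16). The other member in Rpl3, Snord43, had 12.2, 7.76 and 11.9 FPKM in Pro and 2.69, 3.15 and 0.722 in Baso. Its levels were 2.00, 0.0649 and 1.09 FPKM in Poly and 0.942, 1.11 and 0.114 in Ortho. The later libraries were all lower than the Pro libraries but far apart from each other in Poly and Ortho. Its log2 fold change was -2.60 in Poly and -2.78 in Ortho (SE 0.416, adjusted p = 8.25e-05 in Ortho).

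Snord49b, Snord65 and Snord49a lie in introns of the noncoding gene 2410006H16Rik. Snord49a changed less than the others in Baso and Ortho. It was called lower in Ortho (log2 fold change -1.13, adjusted p = 0.00859, limma) but not in Baso (-0.68, adjusted p = 0.101). Its Baso replicate 3 (13.2 FPKM) lay within the Pro range (11.4 to 13.4). Snord49b had 31.6, 14.0 and 21.0 FPKM in Pro, 3.52, 4.14 and 7.597 in Baso, 3.85, 4.21 and 3.78 in Poly, and 4.84, 4.67 and 4.99 in Ortho. Every later library lay below every Pro library, and the later stages overlapped or nearly met. Its log2 fold change against Pro was -1.92 for Baso (adjusted p = 0.000101) and -1.92 for Ortho (adjusted p = 4.4e-05, SE 0.266). Snord65 had 16.3, 11.8 and 20.3 FPKM in Pro, 6.58, 7.75 and 9.18 in Baso, 2.59, 4.62 and 2.89 in Poly, and 4.15, 5.35 and 4.43 in Ortho. Its Pro, Baso and Poly libraries did not overlap, and the drop from Baso to Poly was called (log2 fold change -1.03, SE 0.207, adjusted p = 0.0116). The mean of the host was 97.2 FPKM over Pro and 61.1 over Ortho, a log2 change of -0.66 (adjusted p = 4.42e-05) that did not reach the fold of 1.

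Rpl13a carries 4 C/D members, of which Snord32a, Snord33 and Snord35a are known from work on the response of cells to lipid overload. Snord32a had 13.1, 15.3 and 22.9 FPKM in Pro, 4.13, 3.94 and 3.84 in Baso, 5.33, 3.15 and 2.66 in Poly, and 3.50, 1.50 and 2.38 in Ortho. Snord35a had 19.3, 9.87 and 15.5 FPKM in Pro, 3.85, 4.14 and 2.77 in Baso, 3.28, 3.599 and 3.21 in Poly, and 2.67, 1.47 and 2.53 in Ortho. Both kept all later libraries under all Pro libraries and were called lower in every comparison with Pro, with log2 fold changes in Ortho of -2.39 (SE 0.255, adjusted p = 5.22e-06) and -2.28 (SE 0.222, adjusted p = 2.44e-06). Snord34 did so too (log2 fold change -1.80 in Ortho, adjusted p = 1.73e-06). Snord33, which unlike these 3 overlaps an annotated exon of Rpl13a, never exceeded 0.000352 FPKM and was not tested.

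Snord68, which overlaps an exon of the ribosomal protein gene Rpl13, had the most negative fitted fold on the log2(FPKM + 1) scale among the tested members in Ortho, a scale on which members near 0 FPKM count less. Its FPKM was 16.2, 6.76 and 15.7 in Pro, 0.754, 4.12 and 2.94 in Baso, 1.22, 0.700 and 4.14 in Poly, and 0.714, 0.333 and 1.41 in Ortho. No later library reached the Pro range. The log2 fold change was -1.99, -2.28 and -2.89 in the 3 stages (SE 0.486, adjusted p = 0.000206 in Ortho, limma).

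The remaining one of the 5 abundant C/D RNAs, Snord12 in the noncoding host Zfas1, had no such pattern in the test. Its FPKM was 0.109, 39.9 and 50.1 in Pro, 6.23, 14.7 and 12.4 in Baso, 11.98, 12.2 and 10.2 in Poly, and 4.82, 10.5 and 5.83 in Ortho. Pro replicate 1 lay below every other library and Pro replicates 2 and 3 above all of them. The log2 fold change of -0.78 in Ortho was within this spread (SE 1.10, adjusted p = 0.531). Without Pro replicate 1 it was -2.57 and called, and without Pro replicate 2 or 3 it was 0.03 or 0.19. In Baso and Poly too, Snord12 was called only without Pro replicate 1 (-1.99 and -1.88).

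The most abundant H/ACA RNA was Snora31, in an intron of Tpt1, a gene of a highly translated growth-related protein. It had 27.4, 23.3 and 21.9 FPKM in Pro, 14.2, 13.4 and 13.0 in Baso, 8.81, 19.1 and 13.6 in Poly, and 6.57, 14.4 and 11.8 in Ortho. The Pro libraries were the highest, while the later stages overlapped. It was called lower in Ortho (log2 fold change -1.14, SE 0.268, adjusted p = 0.00229), a call that was lost without Ortho replicate 1 (-0.84), without hemoglobin genes in the scaling (-0.67), with centring on the median (-0.74) and with a pseudocount of 5 (-0.91). It passed by the adjusted p alone in Baso (-0.79) and Poly (-0.82), and was called in Poly without Poly replicate 2 (-1.07). Tpt1 had log2 fold changes of -0.11, -0.29 and -0.48 over the same comparisons.

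Snora68 had 17.7, 23.0 and 40.7 FPKM in Pro, 10.3, 12.3 and 10.6 in Baso, 10.6, 8.83 and 6.36 in Poly, and 8.89, 8.40 and 7.66 in Ortho. It was called lower in all 3 comparisons (log2 fold change -1.14, -1.49 and -1.51, SE 0.248, adjusted p = 0.00017 in Ortho), in Baso only with Pro replicate 3 in the fit (-0.82 without it). The call in Baso was also lost without hemoglobin genes in the scaling (-0.84), with centring on the median (-0.85) and with a pseudocount of 5 (-0.94). Snora24 of the noncoding host Snhg8 had 15.6, 15.6 and 14.3 FPKM in Pro, 6.13, 13.4 and 8.08 in Baso, 7.82, 10.2 and 11.1 in Poly, and 4.61, 4.95 and 8.06 in Ortho. Its Pro libraries were close together and above all others, and it was called lower in Ortho (log2 fold change -1.27, SE 0.243, adjusted p = 0.000551) but not in Baso (-0.73, or -1.01 and called without Baso replicate 2) or Poly (-0.61). The call in Ortho was lost without hemoglobin genes in the scaling (-0.83), with centring on the median (-0.87) and with a pseudocount of 5 (-0.91).

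Snora61 of the noncoding host Snhg12 had the most negative fitted fold on the log2(FPKM + 1) scale among the tested members in Baso. Its FPKM was 16.02, 14.8 and 14.2 in Pro, 1.66, 4.39 and 0.158 in Baso, 2.31, 4.77 and 4.28 in Poly, and 2.09, 3.52 and 2.84 in Ortho. The Pro libraries were close together and lay above every later library, while Baso replicate 3 was the lowest of all. Against Pro it changed by -2.65 (log2, SE 0.427, adjusted p = 0.000301), then -1.78 (adjusted p = 0.00326) for Poly and -2.09 (adjusted p = 0.000883) for Ortho.

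Snora70, overlapping an exon of the ribosomal protein gene Rpl10, had 0.0537, 17.3 and 12.7 FPKM in Pro, 8.37, 9.95 and 6.80 in Baso, 8.62, 10.3 and 7.86 in Poly, and 4.97, 8.48 and 6.17 in Ortho. As for Snord12, Pro replicate 1 was the lowest library and the other Pro libraries the highest. No comparison passed (log2 fold change 0.53, 0.62 and 0.21, adjusted p = 0.588, 0.51 and 0.823), and without Pro replicate 1 the values turned to -0.77, -0.68 and -1.10, the last of them called.

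**Figure D3:**
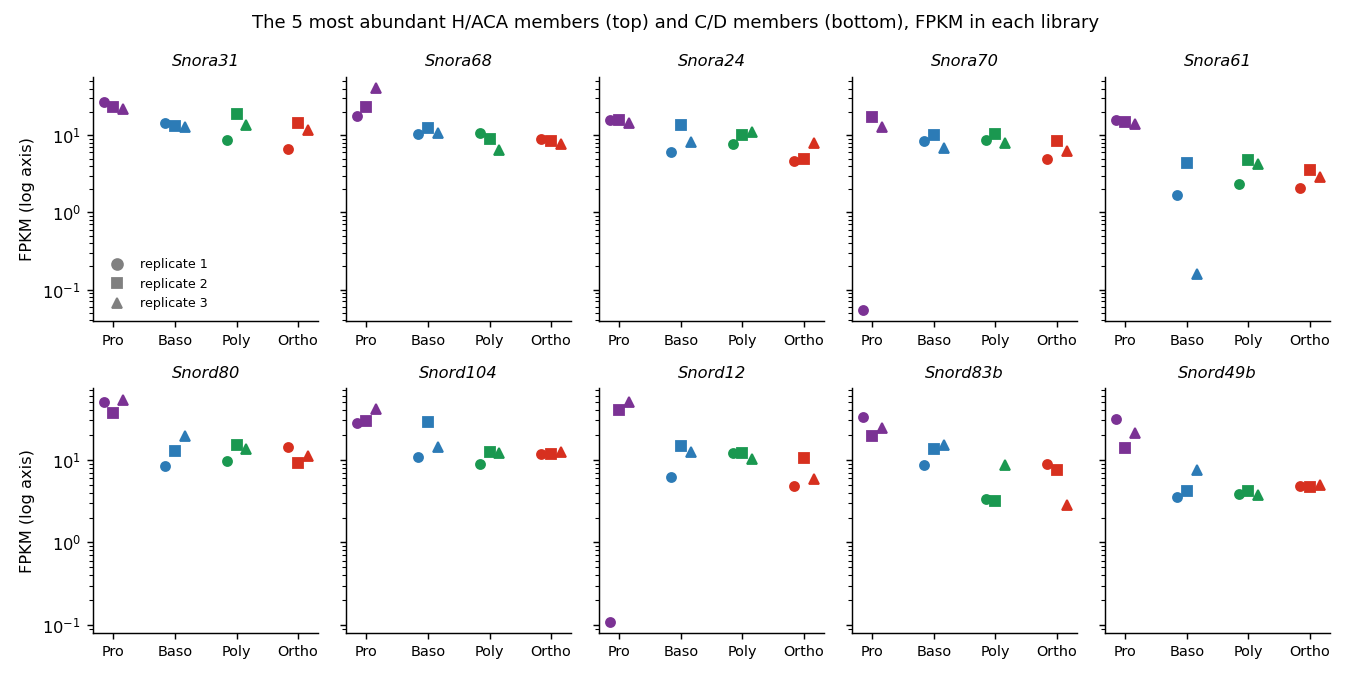
FPKM of the 5 most abundant H/ACA members (top row) and C/D members (bottom row) in each library, on a log axis, with a symbol for each replicate. Pro replicate 1 of Snora70 (0.0537) and of Snord12 (0.109) lies far below the other Pro libraries, and in the other 8 panels no Pro library is the lowest.

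The 4 members without a host were all called lower in Poly and in Ortho, and 2 of them in Baso. Besides Snord104 they are the H/ACA RNAs Snora57, Snora17 and Snora43, with log2 fold changes in Ortho of -1.60, -1.49 and -1.37 (adjusted p = 0.00233, 0.0089 and 0.00486). Of the 36 tested members in an intron alone, 10, 13 and 23 were called lower (27.8%, 36.1% and 63.9%). Of the 22 that overlap an exon of the host, 9, 7 and 9 were (40.9%, 31.8% and 40.9%). Members in ribosomal protein hosts (20 tested) were called lower in 10, 13 and 12 cases (50%, 65% and 60%), with medians of -1.12, -1.27 and -1.48. Members in other hosts (38 tested) were called lower in 9, 7 and 20 cases (23.7%, 18.4% and 52.6%), with medians of -0.75, -0.60 and -1.02. Among all genes tested the shares were 8.54%, 12.8% and 23.8%. The differences between these groups were not tested.

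Most hosts were lower than in Pro as well. Of 73 host genes tested, 35, 48 and 51 were called lower (47.9%, 65.8% and 69.9%, beside 8.54%, 12.8% and 23.8% of all genes). Called higher were 0, 0 and 1, beside 1.82%, 3.59% and 6.33% of all genes. Among 57 members with a tested host, the median log2 fold change in Ortho was -1.14 for the members and -1.28 for their hosts, counted once per member. Member and host were both below 0 in 54 of the 57 pairs. The member lay below its host in 29 of 57 pairs, and of 32 members called lower 25 had a host that was called lower too. All 24 ribosomal protein hosts were below 0 in Ortho and 21 were called lower. Rpl13a, for example, averaged 1592 FPKM over the Pro libraries and 572 over the Ortho libraries, a log2 fold change of -1.48 (adjusted p = 6.9e-08).

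**Figure D4:**
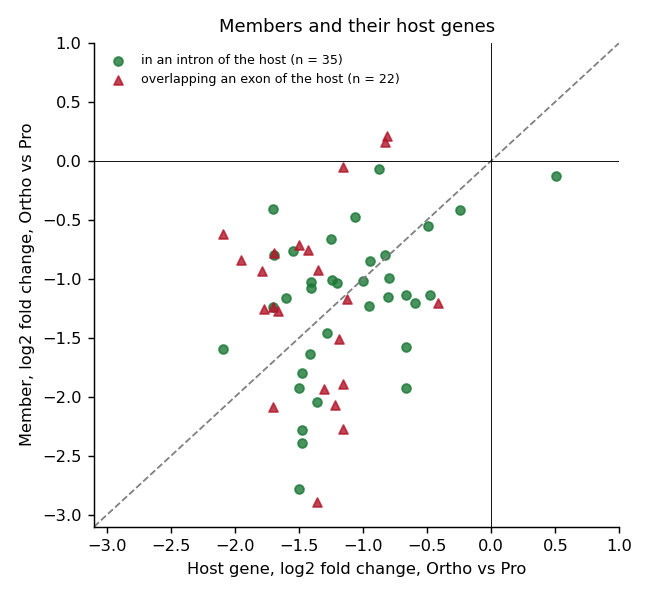
Log2 fold change from Pro to Ortho of 57 members (vertical) against that of the gene that holds each (horizontal), by the place of the member in the host. The dashed line marks equal change, and 54 of 57 points have both values below 0.

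The host called higher was Eif5, which encodes a translation initiation factor. Its FPKM was 137, 157 and 142 in Pro and 498, 464 and 460 in Ortho, with no overlap (log2 fold change 1.70, SE 0.0979, adjusted p = 4.49e-08). Its member Snora28 stayed between 0.104 and 0.170 FPKM in all 12 libraries, overlapped between Pro (0.106, 0.133 and 0.131) and Ortho (0.137, 0.119 and 0.126), and was too low to be tested. Among other hosts with a positive fold in Ortho, Ap1g1 (0.50) holds Snord71, a tested member with a log2 fold change of -0.13 (adjusted p = 0.787), and Zbed3 (0.40) holds Snora47, which was not tested.

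The messenger RNAs of the proteins that bind these RNAs were also highest in Pro, and protein was not measured. The genes of all 4 core proteins of the C/D particle were called lower in each of the 3 comparisons, beside 8.54%, 12.8% and 23.8% of all genes. They are Fbl, the methyltransferase fibrillarin, Nop56 and Nop58, its scaffold, and Snu13, which binds the RNA's kink. Fbl had 231, 147 and 186 FPKM in Pro and 60.9, 56.3 and 58.6 in Ortho (log2 fold change -1.64, SE 0.135, adjusted p = 6.32e-07). Nop56 had 219, 200 and 238 FPKM in Pro and 58.8, 47.5 and 45.8 in Ortho (-2.09, adjusted p = 3.09e-08), and Nop58 and Snu13 changed by -1.70 and -1.38. No Ortho library overlapped a Pro library for any of these 4 genes. The call of Snu13 was lost in all 3 comparisons when libraries were rescaled without hemoglobin genes or centred on the median (-0.89 and -0.98 in Ortho), and in Baso also without Pro replicate 3 or Baso replicate 1, while that of Nop58 was lost by these scalings in Baso (-0.92 and -0.93).

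Of the H/ACA core proteins, Dkc1, the pseudouridine synthase dyskerin, had 78.4, 65.9 and 69.3 FPKM in Pro and 23.6, 25.8 and 23.3 in Ortho (log2 fold change -1.51, SE 0.110, adjusted p = 2.43e-07). Its partners Nhp2 and Gar1 changed by -1.74 and -1.83 and were called in all 3 comparisons, as Dkc1 was. In Baso, the call of Dkc1 (-1.01) was lost without hemoglobin genes in the scaling (-0.70), with centring on the median (-0.71), with a pseudocount of 5 (-0.93), and without Pro replicate 1 or Baso replicate 1 (-0.94 and -0.93). Nop10 had 26.7, 41.8 and 60.6 FPKM in Pro and 25.3, 26.7 and 25.1 in Ortho, so that Pro replicate 1 lay level with the highest Ortho library, and its fold stayed under 1 (-0.65, SE 0.219, adjusted p = 0.0182). Without Pro replicate 1, Nop10 was called in Baso (-1.15) and Poly (-1.09), and with all libraries rescaled to the same sum in Baso (-1.03) and Ortho (-1.01). Of 10 assembly factors, 6 were called lower in each comparison (60%, beside 8.54%, 12.8% and 23.8% of all genes). Among them were Nolc1, a nucleolar chaperone (-1.88 in Ortho), Znhit3 (-1.79) and Ruvbl1, an ATPase (-1.74). The other 4 were below 0 as well, with Znhit6 the least changed in Ortho (-0.37, adjusted p = 0.00785).

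In a list of noncoding RNAs known as hosts of small nucleolar RNAs, 14 of 19 genes could be tested. This list differs from the 18 hosts of members not annotated as protein-coding (Snhg4 and Epb41l4aos hold no member). Of the 14 tested, 11, 14 and 13 were called lower in Baso, Poly and Ortho (78.6%, 100% and 92.9%, beside 8.54%, 12.8% and 23.8% of all genes). Snhg4 (-2.33), Epb41l4aos (-1.97) and Snhg5 (-1.95) changed most in Ortho. Gas5, the host of Snord80, had 272, 261 and 317 FPKM in Pro and 115, 116 and 109.6 in Ortho (log2 -1.31, adjusted p = 2.9e-07).

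Other short noncoding RNAs did not all follow. Of the small Cajal body RNAs, which guide modification of spliceosomal RNA, 2 of 8 could be tested and 0 were called by limma; Scarna13 and Scarna6 had log2 fold changes of -0.71 and -0.59 in Ortho (0 of the 2 had an unadjusted p under 0.05 in any comparison with Pro). Of 17 other small noncoding RNAs, 4 were tested. Those with a name in Rnu were taken by name alone and not sorted by class. Rnu73b is thus not shown here to lie outside the small nucleolar RNAs. Rnu73b was called lower in Baso (-1.25) and Ortho (-1.98), Rnu1a1, a spliceosomal RNA with near-identical gene copies whose reads cannot be assigned with certainty, was called higher in Baso (1.10), and Rn7sk, which holds back the elongation factor P-TEFb, had values of -0.42, -0.26 and 0.13 that did not pass. A further 81 tested genes had other names and were annotated as snoRNA or as small Cajal body RNA, so this group overlaps the one above. Of the 81, 25, 24 and 37 were called lower (30.9%, 29.6% and 45.7%, beside 8.54%, 12.8% and 23.8% of all genes). Called higher were 0, 1 and 1, and the medians of the 81 were -0.70, -0.57 and -0.92.

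The spread between replicates was wide for many members. Libraries of 1 stage lay 10-fold or more apart, with at least 1 FPKM in the highest, for 24 of 62 tested members (38.7%), against 2.76% of all genes tested and 3.88% of the 3919 genes in the members' middle range of FPKM (1.40 to 6.32). Those genes were matched by FPKM and not by length, and at equal FPKM a shorter gene has fewer fragments. The part of length in this spread was not tested. The median SD of log2(FPKM + 1) within a stage was 0.478 for the members and 0.144 for all genes. Such gaps were found in 16 of 22 members that overlap an exon of their host, in 7 of 36 members in introns and in 1 of 4 without a host.

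Some of these gaps followed the replicate number. Snora33, overlapping an exon of the ribosomal protein gene Rps12, had 0.0580, 7.38 and 10.5 FPKM in Pro, 0.0781, 4.31 and 4.45 in Baso, 0.0718, 4.96 and 3.80 in Poly, and 0.0935, 2.22 and 3.18 in Ortho. Replicate 1 was low in all 4 stages and at no stage came within 10-fold of the others. Its log2 fold change of -0.93 in Ortho had an adjusted p of 0.405 (limma), and of 0.0108 with the replicate number as a block, without reaching the fold of 1. Snord14d, a member of the U14 family that acts in cutting the ribosomal RNA precursor, had 0.0750, 5.54 and 0.0291 FPKM in Pro, 0.00587, 4.58 and 0.0247 in Baso, 0.00821, 4.66 and 1.31 in Poly, and 0.00440, 2.24 and 1.01 in Ortho. Here replicate 2 was the highest in all stages, and reads may be split among the similar Snord14 genes. These genes were picked after their values were seen. Replicate 2 was also the highest in all 4 stages for Snora70 and the lowest in all 4 for Snora16a. Whether more members do this than random order would give was not tested.

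Other gaps did not follow the number. Snord57, in the gene of the C/D core protein Nop56, had 0.0837, 12.9 and 18.9 FPKM in Pro, 0.136, 0.103 and 0.136 in Baso, 2.50, 4.79 and 3.57 in Poly, and 3.91, 4.38 and 2.14 in Ortho. All Baso libraries were near 0.1 while Poly and Ortho lay between 2.14 and 4.79, and its call in Baso (log2 fold change -2.57, SE 0.813, adjusted p = 0.0182) came without separated libraries. Snord14e had 9.38, 10.2 and 0.0474 FPKM in Pro, 6.01 in Baso replicate 3, 3.14 in Poly replicate 3 and at most 0.0387 in the other 7 libraries. Snora7a of Rpl32 had 12.7 FPKM in Pro replicate 2 and 3.23 and 1.47 in Poly replicates 3 and 2, and at most 0.305 elsewhere. Pro replicate 1 lay 10-fold or more below both other Pro libraries for 6 members (Snora70, Snora52, Snora33, Snora73b, Snord12 and Snord57), against 0 to 3 members in each of the other libraries. Values between 0 and 0.01 FPKM were found in 136 of 720 values of the exon-overlapping members and in 2 of 564 values of the intronic ones. How fragments were shared between a member and its host was not tested.

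**Figure D5:**
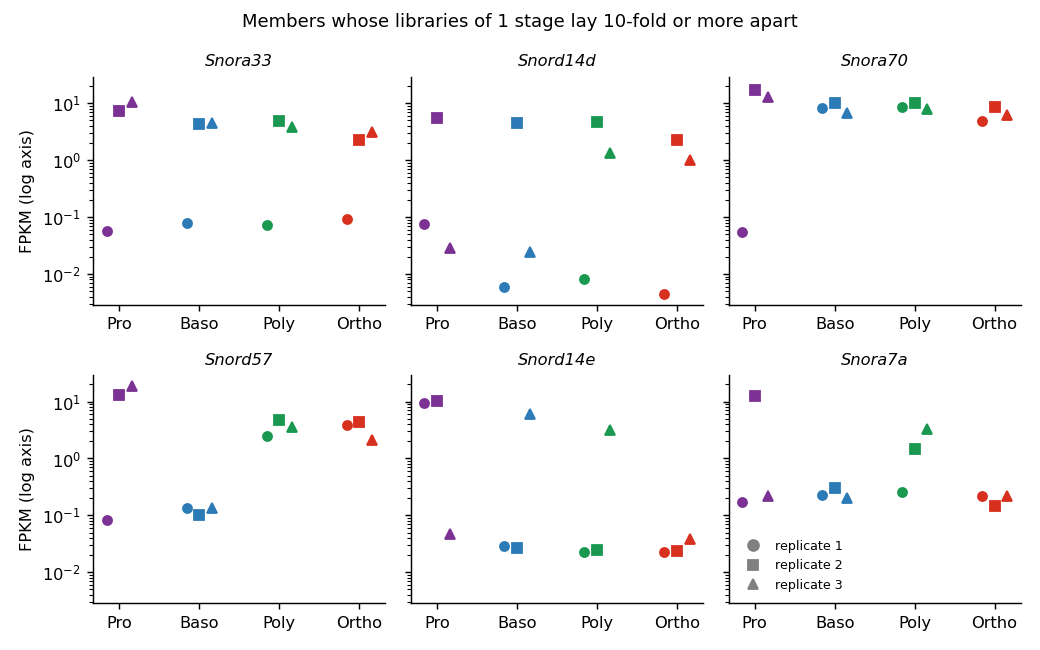
FPKM of 6 members picked for gaps between replicates, in each library on a log axis, with a symbol for each replicate. Replicate 1 of Snora33 is under 0.1 in all 4 stages, and replicate 2 of Snord14d is at 2.24 to 5.54 in all 4, and Pro replicate 1 of Snora70 and Snord57 is low, while the low values of Snord14e and Snora7a fall in differing replicates of the stages.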

How the data were processed

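RNA was sequenced from 12 libraries, 3 for each of 4 stages. Per the paper's methods and the labels, the authors trimmed reads with Cutadapt and Trimmomatic, aligned them to mm10 with HISAT2, counted with featureCounts and deposited FPKM per gene. The annotation release, strand setting and tool that made the FPKM are not given in the sources used here. The labels name Trizol and a NEBNext Ultra kit, the methods Geek lysis and a KAPA Hyper Prep kit. Neither names a selection for small RNA. Depth is unknown from FPKM, so no counting error is given, and precision rests on the spread between libraries. Of 29839 lines, 1 repeated identifier was dropped. No column of values was left unassigned.

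Members, hosts and sequences were read from GENCODE M21 (GRCm38) with Python 3.11.15. Genes that reached 1 FPKM in 3 or more libraries entered limma 3.58.1 (R 4.3.3, variance trend, all 12 libraries, two-sided, Benjamini-Hochberg) on log2(FPKM + 1), a scale that understates the change of low genes. The authors used DESeq2 on counts, which does not apply to FPKM. On simulated data for Ortho against Pro (12994 genes), limma recovered 98% of 200 genes changed by 2 on the log2 scale, with 2 false calls. The changed genes were drawn from all genes tested, with normal noise. Recovery among the members, whose spread was wider (median SD 0.478, against 0.144 for all genes), was not tested. Members and lists were chosen with earlier results of these data known. Named members were the 5 of highest mean in each class and, per comparison with Pro, the 5 largest called decreases whose libraries did not overlap and whose mean reached 10 FPKM in either stage (no increase qualified), with the core proteins and hosts. Up to 3 genes of each other list were named by fold. Whether same-numbered libraries deviate together was checked: correlations were 0.156 to 0.319 among Baso, Poly and Ortho and 0.00524 to 0.0968 with Pro. Same-numbered later libraries thus deviated partly together, but libraries of different numbers were not compared and the labels state no pairing. The main fit left the replicate number out. Alternatives were other pseudocounts, filters, scalings and variance models, fits of 2 stages, a replicate block, the adjusted p alone and leaving out each library. Some items are not reported here.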

Additional observations from a re-analysis of the deposited data

How the results depend on the processing

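Under every alternative run the H/ACA and C/D medians against Pro were below 0, and the number called depended on the scale and on the filter. With a pseudocount of 5, which shrinks the folds of low genes, 10, 12 and 15 members were called in Baso, Poly and Ortho against Pro. These were 16.1%, 19.4% and 24.2% of the 62 tested, beside 3.49%, 6.73% and 13.4% of all genes. From Baso to Poly that setting gave 0 calls, and a pseudocount of 0.1 gave 2 from Poly to Ortho. With the 19 members of mean FPKM of at least 5, 10, 14 and 17 were called, since fewer entered. These were 52.6%, 73.7% and 89.5%, beside 10.3%, 15.7% and 30.4% of all genes of that mean. The mean includes the Pro libraries, which favours a decrease. Without hemoglobin genes in the scaling 22 were called in Ortho (35.5%, beside 8.87% of all genes). With centring on the library median 19 were called (30.6%, beside 9.95%). With the adjusted p alone, 2 members passed from Poly to Ortho, and with only the 2 stages compared, 2 passed from Baso to Poly, 1 of them higher (Snord57). Leaving out each library in turn gave 19 to 26 calls in Baso, 21 to 26 in Poly, 30 to 37 in Ortho and 0 to 2 in each later step, and 13, 16 and 23 members kept their call throughout. Of the 51 tested members above 0 in all 12 libraries, 31 were called in Ortho, and of the 37 tested members overlapping no exon of another gene, 26. Among all genes tested, with no such selection, 23.8% were called lower in Ortho.

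The H/ACA sum over Pro was 189 with all libraries rescaled to the same sum, 137 without hemoglobin genes and 104 over members of mean FPKM of at least 5. Those members gave 48.1 over Baso, 48.7 over Poly and 37.6 over Ortho, where the sum was 65.5 without hemoglobin genes. The C/D sum over Pro was 469.7, 339 and 278 in the same order, and over those members 105.3 in Baso, 83.0 in Poly and 74.6 in Ortho. In Ortho it was 97.7 rescaled to the same sum and 129 without hemoglobin genes. The H/ACA median in Ortho was -1.59 with a pseudocount of 0.1, -0.54 with 5 and -0.51 with no filter. The C/D median in Baso was -1.41, -0.56 and -0.56 in that order, -0.70 without hemoglobin genes and -0.69 centred. In Poly it was -1.36, -0.50, -0.45, -0.75 and -0.74, and -1.81 for members of mean FPKM of at least 5. In Ortho it was -1.73, -0.67, -0.64, -0.93 and -0.81, and -1.80 for those members, with -1.42 to -1.06 over libraries left out. From Poly to Ortho it was -0.024 with no filter and -0.020 for those members.

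The direction of Snord12 and Snora70 was not fixed. Snord12 turned positive in Baso with a pseudocount of 0.1 (0.49), without hemoglobin genes (0.028), centred (0.094), and without Pro replicate 2 (0.61), Pro replicate 3 (0.77) or Baso replicate 1 (0.13). In Poly the first 5 of these gave 0.62, 0.17, 0.16, 0.72 and 0.88, and in Ortho Snord12 was 0.03 without Pro replicate 2 and 0.19 without Pro replicate 3. Snora70 turned negative without Pro replicate 1 (-0.77, -0.68 and -1.10), and in Ortho with a pseudocount of 5 (-0.14) and rescaled to the same sum (-0.061). Over the libraries left out, Snord12 ranged from -1.99 to 0.77 in Baso, from -1.88 to 0.88 in Poly and from -2.57 to 0.19 in Ortho, and Snora70 from -0.77 to 1.29, from -0.68 to 1.38 and from -1.10 to 0.96. Among all alternatives for single named genes, 1448 values kept direction and side of the threshold, 28 lost a call, 18 gained one and 18 changed sign. The cause was not tested. With the replicate block, 22, 24 and 35 members were called against Pro, beside 8.58%, 12.8% and 23.8% of all genes. The block gave 1 call from Baso to Poly and 0 from Poly to Ortho, and no count moved by over 1.5 times.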

Other observations

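Several facts limit these values. FPKM gives no depth, so the error of low members cannot be split into counting error and other spread. The libraries were not stated to be made for small RNA, and mature RNA, intron and host exon share reads. FPKM is relative to the library, so a lower value is a lower share of the RNA, and the number of molecules per cell was not measured. With 3 libraries a stage, all comparisons with Pro rest on the same 3 Pro libraries, of which replicate 1 stood apart for 6 members.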
